A study of Mus musculus with 4 samples.

Results

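Ribosome biogenesis factors are the nuclear and nucleolar proteins that make, cut, modify and fold ribosomal RNA and join it to ribosomal proteins. A set of 44 such genes was chosen by symbol, and each symbol was found as 1 row of the 23258 genes in the table. All 44 also passed the filter on low counts, which left 16030 genes for testing. By role, 17 belong to the small-subunit processome, 7 are core proteins of small nucleolar ribonucleoproteins (snoRNPs), 4 act in late 40S maturation, 10 in 60S assembly and 3 in RNA polymerase I transcription, and 3 are abundant nucleolar proteins with several tasks.

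RNA sequencing covered 4 libraries, labelled as gastric tumours of C57BL/6 mice of both sexes at week 20. The Mst4 KO group has 2 libraries from animals that carry floxed Mst4 alleles (Mst4F/F) and a Cre recombinase. The WT group has 2 libraries from animals labelled wild type. The labels do not say how the tumours arose, whether WT animals carried a floxed allele or Cre, or whether both libraries of one genotype stem from different animals. Each p-value therefore measures library-to-library spread only, which may be technical.

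Ribosome production begins in the nucleolus, where RNA polymerase I transcribes a long precursor RNA. The small-subunit processome assembles on its first part, box C/D and box H/ACA snoRNPs methylate and pseudouridylate it, and separate sets of factors carry the 40S and 60S precursors to the cytoplasm. Cells raise these genes when they grow, often through the transcription factor MYC, and lower them when nutrients are short.

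The rows of the table are human genes: all 23258 identifiers begin with the human taxon prefix although the labels give mouse, so genes are called by human symbols, and KO and WT stand for what the labels call each library. Whether the material was mouse tumour, as labelled, or human cells was not settled by the labels and the table. Library totals were 18613533 and 18701250 estimated counts in KO replicates 1 and 2 and 30505281 and 18804535 in WT replicates 1 and 2, and the lowest count of any member in a library was 30.3. Levels are given as CPM, counts scaled to a common library total, with totals adjusted by the TMM method. STK26, the human symbol of the targeted kinase, was at 9.07 and 7.36 CPM in the KO libraries, against 54.2 and 54.9 CPM in WT replicates 1 and 2, a log2 fold change of -2.73 (SE 0.26) that followed the labels. It missed the threshold in edgeR (adjusted p = 0.834) and was called by DESeq2 (adjusted p = 8.49e-12). Of the gastric gland markers, TFF2 was at 0 in every library and PGC did not exceed 0.0524 CPM, while ATP4A was at 11.4 and 6.999 CPM in KO, against 4.96 and 7.95 CPM in WT. Of the leukocyte markers, PTPRC did not exceed 0.472 CPM, while the macrophage marker CD68 was at 13.0 and 17.7 CPM in KO, against 34.1 and 19.6 CPM in WT. WT replicate 1 stood apart across the table, lowest of the 4 libraries for 39.8% and highest for 40.7% of the genes tested, so results are given with and without it.

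Nearly every ribosome biogenesis factor was lowest in WT replicate 1, while WT replicate 2 and the KO libraries lay close together. WT replicate 1 was below the other 3 libraries for 40 of the 44 members (90.9%), against 39.8% of all genes tested and 45.8% of those with a mean of at least 10 CPM. It was more than 2-fold below WT replicate 2 for 23 members (52.3%), against 9.83% of all genes tested and 8.67% of those with a mean of at least 10 CPM. The median member was at 92.6 and 95.01 CPM in the KO libraries, against 44.7 and 99.0 CPM in WT replicates 1 and 2. On the length-scaled FPKM values WT replicate 1 was again the lowest library for 40 members. In bulk RNA, fewer cells of a type and less RNA per cell cannot be told apart.

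**Figure D1:**
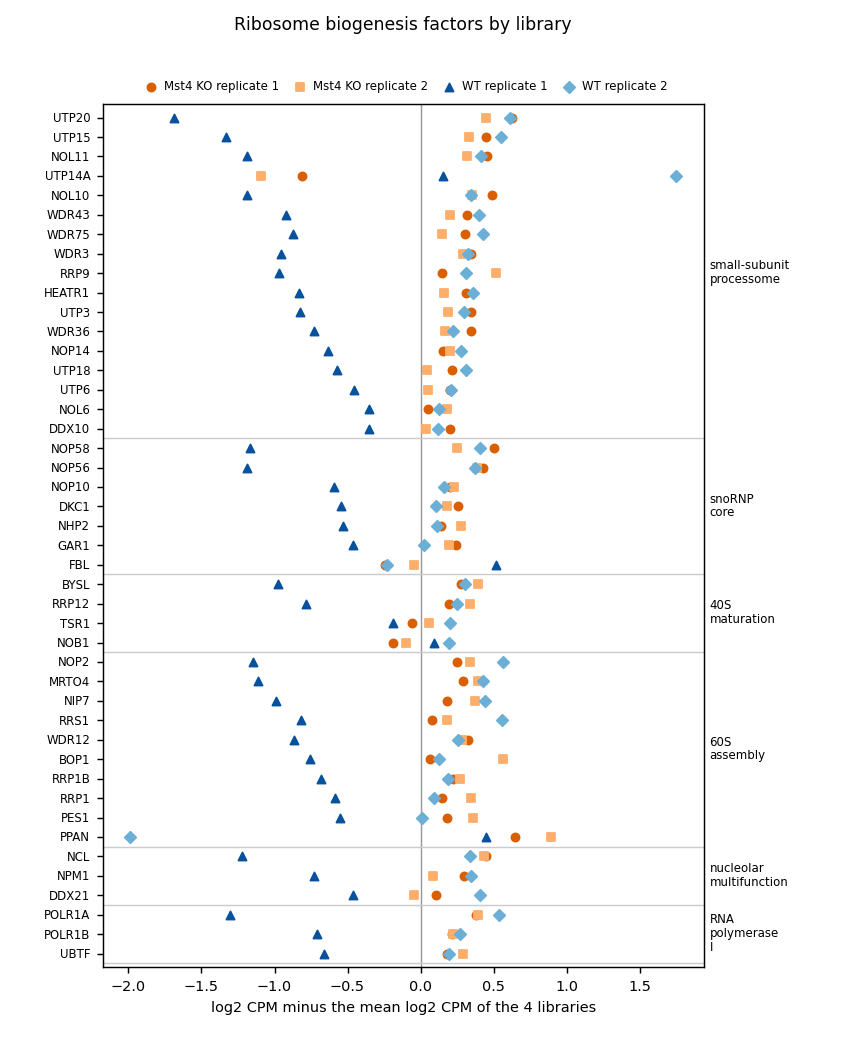
Level of each of the 44 ribosome biogenesis factors in each library, as log2 CPM minus the mean log2 CPM of the 4 libraries, with members grouped by role and ordered within a role by the ratio of WT replicate 2 to WT replicate 1. WT replicate 1 (dark triangles) is the leftmost point for 40 members, and the exceptions are UTP14A, FBL, NOB1 and PPAN.

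The KO libraries were much more alike than the WT libraries. The absolute log2 difference between KO replicates 1 and 2 had a median of 0.137 over the members and was at most 0.501, in BOP1. Between the WT replicates its median was 1.10. For 42 of the 44 members the mean log2 CPM of the KO libraries lay within 0.5 of WT replicate 2, with a median absolute difference of 0.1004, and the other 2 were UTP14A and PPAN. The log2 ratio of WT replicate 1 to WT replicate 2 had a median of -1.05 over the members, against 0.01 over all genes tested.

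**Figure D2:**
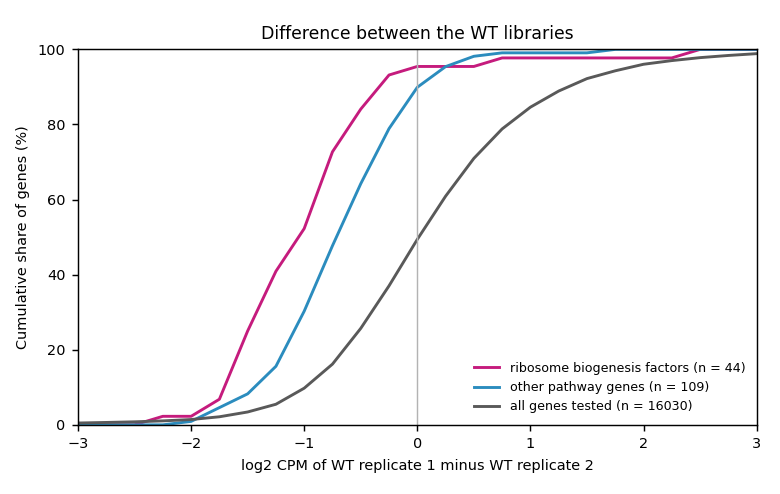
Cumulative share of genes (vertical axis, %) by the log2 CPM of WT replicate 1 minus WT replicate 2 (horizontal axis), for the 44 ribosome biogenesis factors, 109 other genes of the pathway and all 16030 genes tested. The curve of the members lies to the left, with a median of -1.05, and that of all genes tested is centred at 0.01.

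With genotype as the contrast, no member was called different between KO and WT. The edgeR quasi-likelihood test called 0 of the 44 members at an adjusted p under 0.05, as it called 0.0% of all 16030 genes. At an unadjusted p under 0.05 there were 0 members higher in KO, against 0.948% of all genes, and 1 member lower, UTP14A, against 3.22%. DESeq2 also called 0 members, against 0.25% of all genes. The fitted log2 fold changes were above 0 for 39 members and below 0 for 5, with a median of 0.41 over the members and -0.01 over all genes tested. Each KO value exceeded each WT value for 12 members (27.3%), against 18.3% of all genes, and each was below each WT value for 2 (4.55%), against 19.1%. The first count was 15 on FPKM values and 14 with upper-quartile scaling, and the second was 2 in both. With 2 libraries against 2, an exact permutation test of a single gene, two-sided, cannot give a p below 0.333.

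The size of the genotype difference rested on which WT library it was set against. Without WT replicate 1 the median log2 fold change of the members was -0.02, against 0.01 over all genes tested. The share of all genes that changed sign between the fits was not counted. Of the members, 20 went from above 0 with all 4 libraries to below 0 in the fit without WT replicate 1. In that fit edgeR called 1 member higher in KO, PPAN, where it called 2.54% of all genes higher. It called 1 member lower, UTP14A, where it called 3.93% of all genes lower. Without WT replicate 2 the median was 0.99, against 0.00 over all genes tested, and 39 members (88.6%) were called higher and 2, UTP14A and FBL, lower, against 25.2% and 26.1% of all genes. Each of these fits takes its spread from the KO libraries alone, which lay closer together than the WT libraries, so its p-values do not cover the spread within WT.

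**Figure D3:**
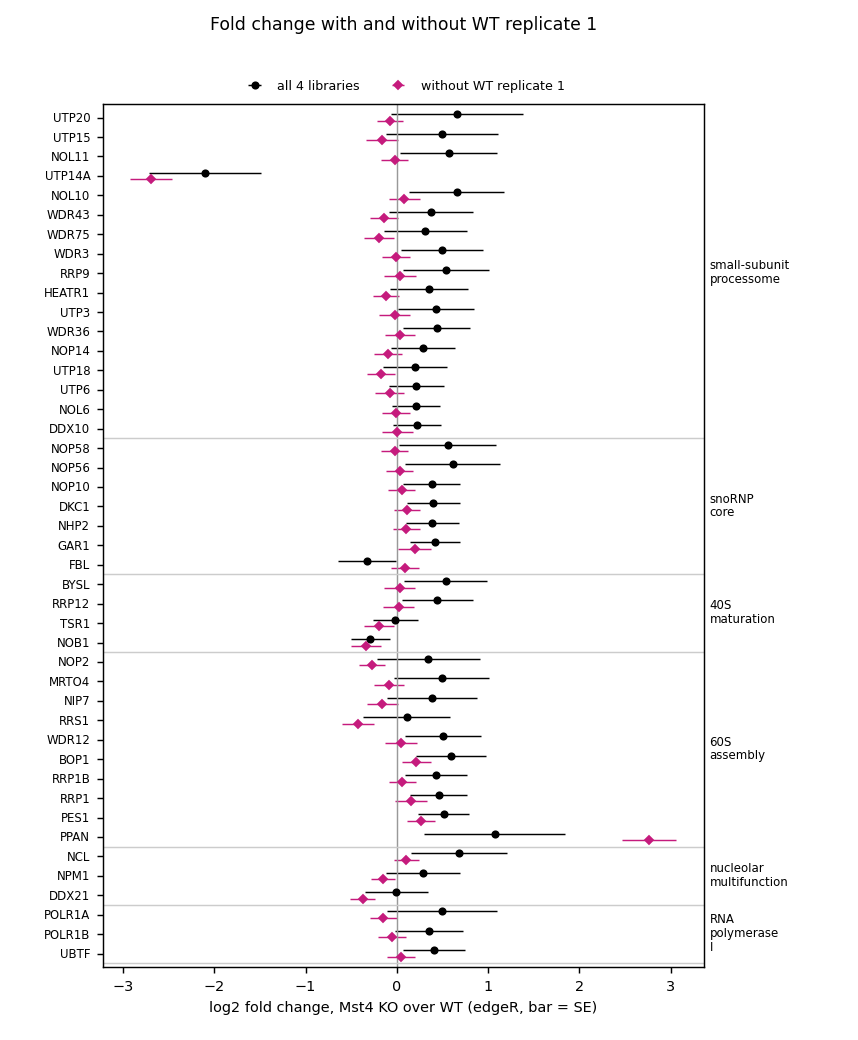
Fitted log2 fold change of Mst4 KO over WT for each ribosome biogenesis factor (edgeR, bars are SE), with all 4 libraries (black circles) and without WT replicate 1 (magenta diamonds). With all 4 libraries 39 members lie above 0, and without WT replicate 1 the members gather around 0 except UTP14A at -2.69 and PPAN at 2.76.

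Among the small-subunit processome genes the median gap between the WT libraries was wider than in any other role group. WT replicate 2 was above WT replicate 1 for all 17, by a median of 2.43-fold and between 1.39-fold and 4.92-fold. UTP20, a large scaffold protein of the processome, was at 177 and 156 CPM in the KO libraries, against 35.7 and 176 CPM in WT replicates 1 and 2. Its WT values were 4.92-fold apart, the widest gap in the set in this direction, and its KO values fell on either side of WT replicate 2. The log2 fold change of UTP20 was 0.66 (SE 0.72) with all 4 libraries and -0.07 (SE 0.14) without WT replicate 1.

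A subcomplex of the processome that is also needed for transcription of the precursor, the t-UTP group, has 5 members here. UTP15, one of its scaffold proteins, was at 35.3 and 32.5 CPM in the KO libraries, against 10.3 and 38.0 CPM in WT replicates 1 and 2. NOL11 was at 142 and 129 CPM in the KO libraries, against 45.5 and 138 CPM in WT replicates 1 and 2. HEATR1, its largest protein, was at 208 and 188 CPM in the KO libraries, against 94.2 and 215 CPM in WT replicates 1 and 2. The WD-repeat proteins WDR43 and WDR75 lay 2.50-fold and 2.47-fold higher in WT replicate 2 than in WT replicate 1. In all 5 WT replicate 1 was by far the lowest library, and the KO values stayed within 0.5 of WT replicate 2 on the log2 scale.

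The UtpB group, which binds the start of the precursor, has UTP6, UTP18, WDR3 and WDR36. UTP18, the most abundant processome member per length (mean 40.6 FPKM over the 4 libraries), was at 95.3 and 84.7 CPM in the KO libraries, against 55.0 and 102 CPM in WT replicates 1 and 2. The ratio of WT replicate 2 to WT replicate 1 was 1.59 for UTP6, 1.85 for UTP18, 1.94 for WDR36 and 2.43 for WDR3. Their fitted log2 fold changes lay between 0.20 in UTP18 and 0.50 in WDR3, none of them called.

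Other processome factors followed the same order with gaps of different size. NOL10, the human counterpart of a yeast processome protein, was at 72.5 and 65.8 CPM in the KO libraries, against 22.6 and 65.3 CPM in WT replicates 1 and 2, and both KO values were above both WT values, though KO replicate 2 exceeded WT replicate 2 by less than 1 CPM. RRP9, a protein specific to the U3 snoRNP, was at 27.3 and 35.2 CPM in the KO libraries, against 12.6 and 30.49 CPM in WT replicates 1 and 2. The gap was small for DDX10, an RNA helicase, at 57.8 and 51.4 CPM in the KO libraries, against 39.3 and 54.5 CPM in WT replicates 1 and 2, and for NOL6 (1.39-fold). UTP3 and NOP14 lay between these, at 2.18-fold and 1.88-fold. NOP14 has an antisense gene in the table, and without a stated strand setting their reads cannot be told apart.

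UTP14A departed from the rest of the set and was lower in both KO libraries. It encodes a processome protein whose yeast counterpart activates the helicase that releases U3. UTP14A was at 3.30 and 2.72 CPM in the KO libraries, against 6.42 and 19.5 CPM in WT replicates 1 and 2 (mean 3.01 ± 0.414 CPM in KO and 12.9 ± 9.22 CPM in WT, SD, n = 2 each). The counts behind these values were 62.7 and 51.7 in KO and 189 and 360.4 in WT, and the gene length they imply varied 1.34-fold between libraries. The groups did not overlap, but the WT libraries were 3.03-fold apart. Its log2 fold change was -2.10 (SE 0.61), which did not pass in edgeR (adjusted p = 0.834) or DESeq2 (adjusted p = 0.13). It fell by 2.69 on the log2 scale without WT replicate 1 (SE 0.23) and by 1.07 without WT replicate 2 (SE 0.30). Both of these fits used the same 2 KO libraries, so they are not separate evidence.

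Reads of UTP14A may be shared with UTP14C, an intronless copy of the gene that arose by retrotransposition. UTP14C was at 20.1 and 22.3 CPM in the KO libraries, against 13.7 and 17.8 CPM in WT replicates 1 and 2, the opposite order to UTP14A between KO and WT. UTP14A held 14.1% and 10.8% of the summed counts of the pair in KO, against 31.9% and 52.3% in WT. The pair summed to 23.4 and 25.02 CPM in the KO libraries, against 20.1 and 37.3 CPM in WT replicates 1 and 2, so the groups then overlapped. As 1 row in the fit, a choice made after their values were seen, the pair had a log2 fold change of -0.24 (SE 0.36, edgeR adjusted p = 0.862), and without WT replicate 1 it fell by 0.62 (SE 0.17, edgeR adjusted p = 0.00876). Whether the estimated counts divide the reads of the pair correctly was not tested.

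**Figure D4:**
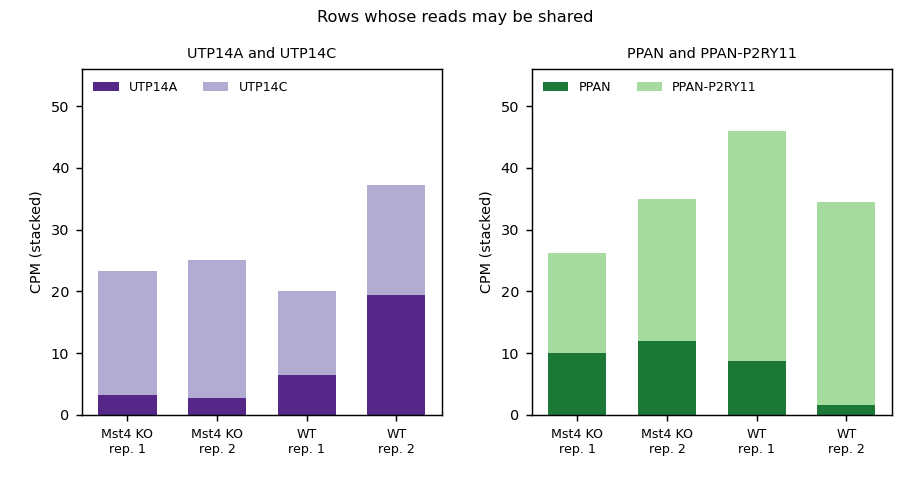
CPM of UTP14A stacked with UTP14C (left) and of PPAN stacked with PPAN-P2RY11 (right) in each library. UTP14A takes up 14.1% and 10.8% of the counts of its pair in the KO libraries against 31.9% and 52.3% in WT, and the summed level of PPAN and PPAN-P2RY11 in KO, 26.3 and 35.0 CPM, overlaps that in WT.

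PPAN, a 60S assembly factor, had the opposite exception. It was at 10.1 and 12.0 CPM in the KO libraries, against 8.77 and 1.62 CPM in WT replicates 1 and 2, so that WT replicate 2 alone was low and WT replicate 1 was close to KO. The log2 fold change of PPAN was 1.07 (SE 0.78), which did not pass in edgeR (adjusted p = 0.834) or DESeq2 (adjusted p = 0.992). It rose by 2.76 (SE 0.30) without WT replicate 1 (edgeR adjusted p = 2.98e-17), the only member called higher there. The table also lists PPAN-P2RY11, a readthrough transcript that joins PPAN to its neighbour and so shares its sequence. PPAN-P2RY11 was at 16.2 and 23.1 CPM in the KO libraries, against 37.2 and 32.9 CPM in WT replicates 1 and 2. It was thus lower in both KO libraries, with a log2 fold change of -0.74 (SE 0.18) without WT replicate 1. Summed, PPAN and PPAN-P2RY11 were at 26.3 and 35.0 CPM in the KO libraries, against 46.0 and 34.5 CPM in WT replicates 1 and 2, with a log2 fold change of -0.39 (SE 0.29) as 1 row in the fit (edgeR adjusted p = 0.835). The direction of PPAN in all 4 libraries therefore turned when the readthrough row was added to it. Without WT replicate 1 the direction turned as well, to a log2 fold change of -0.17 (SE 0.17) for the summed row.

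Among the core proteins of the snoRNPs, the box C/D scaffold proteins NOP56 and NOP58 had the widest gaps between the WT libraries. The box H/ACA proteins had narrower ones, and the box C/D protein FBL ran in the opposite direction. NOP56 was at 159.6 and 155 CPM in the KO libraries, against 52.3 and 154 CPM in WT replicates 1 and 2. NOP58 was at 131 and 110.3 CPM in the KO libraries, against 41.3 and 123 CPM in WT replicates 1 and 2. Both were about as far below WT replicate 2 in WT replicate 1, by 2.95-fold and 2.98-fold. FBL, the methyltransferase that acts within the same box C/D particles, was at 98.4 and 113 CPM in the KO libraries, against 166 and 99.2 CPM in WT replicates 1 and 2. It was the only member (2.27%) that was highest in WT replicate 1, against 40.7% of all genes tested, and its log2 fold change was -0.33 (SE 0.32) with all 4 libraries and 0.09 (SE 0.15) without WT replicate 1.

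Of the box H/ACA proteins, DKC1, the pseudouridine synthase, was at 176 and 167 CPM in the KO libraries, against 101 and 159 CPM in WT replicates 1 and 2. GAR1, which binds the synthase, was at 28.2 and 27.2 CPM in the KO libraries, against 17.2 and 24.2 CPM in WT replicates 1 and 2. NHP2 and NOP10 were 1.56-fold and 1.69-fold higher in WT replicate 2 than in WT replicate 1. All 4 had both KO values above both WT values, as did NOP56, while 18.3% of all genes tested did. The distance to WT replicate 2 was small, with log2 fold changes of 0.05 for NOP10 to 0.20 for GAR1 when WT replicate 1 was left out, none of them called. NOP10, the most abundant snoRNP protein gene per length, averaged 215.6 FPKM over the 4 libraries.

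The late 40S factors held the members with the smallest gaps between the WT libraries. NOB1, the endonuclease that makes the mature end of the small-subunit RNA, was at 62.0 and 65.8 CPM in the KO libraries, against 75.3 and 80.9 CPM in WT replicates 1 and 2. It was the only member besides UTP14A with both KO values below both WT values, and it was not called, with a log2 fold change of -0.29 (SE 0.22, edgeR adjusted p = 0.834). TSR1, a factor that keeps the 40S precursor from early translation, was at 63.6 and 68.9 CPM in the KO libraries, against 58.1 and 76.1 CPM in WT replicates 1 and 2. BYSL, needed for processing of the 40S precursor, was at 49.99 and 54.2 CPM in the KO libraries, against 21.0 and 51.1 CPM in WT replicates 1 and 2, and RRP12 was 2.05-fold higher in WT replicate 2 than in WT replicate 1. BYSL and RRP12 thus showed the gap of more than 2-fold, while NOB1 and TSR1 were only 1.07-fold and 1.31-fold higher in WT replicate 2.

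In 60S assembly all 10 fitted log2 fold changes were above 0, and WT replicate 1 was the lowest library for 9, all but PPAN. PES1, BOP1 and WDR12 form a complex needed to process the large-subunit RNA. PES1, the most abundant 60S member per length, was at 143 and 162 CPM in the KO libraries, against 86.3 and 127 CPM in WT replicates 1 and 2, with both KO values above both WT values. BOP1 was at 68.0 and 96.2 CPM in the KO libraries, against 38.3 and 70.9 CPM in WT replicates 1 and 2, where KO replicate 2 was higher than the other libraries and KO replicate 1 lay below WT replicate 2. WDR12 was at 39.5 and 38.4 CPM in the KO libraries, against 17.3 and 37.7 CPM in WT replicates 1 and 2. NOP2, an RNA methyltransferase, was at 145 and 154 CPM in the KO libraries, against 55.0 and 180.5 CPM in WT replicates 1 and 2, the widest gap between the WT libraries in this direction among the 60S factors (3.28-fold).

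The remaining 60S factors had gaps between 1.605-fold in RRP1 and 2.90-fold in MRTO4, which occupies the place of the ribosomal stalk protein. RRS1, which helps to bring the 5S particle in, was at 28.2 and 30.3 CPM in the KO libraries, against 15.2 and 39.3 CPM in WT replicates 1 and 2. Its KO values lay between the WT values, and its log2 fold change without WT replicate 1 was -0.42 (SE 0.17, edgeR adjusted p = 0.132). NIP7 followed the same order, with KO values between those of WT. RRP1 and RRP1B, related proteins, both had KO values above both WT values, with a log2 fold change of 0.46 (SE 0.31) for RRP1, whose implied length varied 1.23-fold between libraries, and 0.43 (SE 0.34) for RRP1B.

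The 3 abundant nucleolar proteins summed to 3448 and 3093 CPM in KO, against 1631 and 3568 CPM in WT, of 7121 and 6773 CPM in KO and 3563 and 7326 CPM in WT for the whole set. NPM1, a nucleolar chaperone and the most abundant member per length (mean 1302 FPKM over the 4 libraries), was at 2177 and 1876 CPM in the KO libraries, against 1070.4 and 2253 CPM in WT replicates 1 and 2. NCL, nucleolin, an RNA-binding protein, was at 824 and 815 CPM in the KO libraries, against 259 and 764 CPM in WT replicates 1 and 2. DDX21, a helicase that acts in precursor transcription and snoRNA release, was at 447 and 402 CPM in the KO libraries, against 302 and 551 CPM in WT replicates 1 and 2. All 3 were lowest in WT replicate 1, NCL with a 2.95-fold and DDX21 with a 1.82-fold gap to WT replicate 2. Their log2 fold changes were 0.29 (SE 0.40) for NPM1, 0.68 (SE 0.53) for NCL and -0.01 (SE 0.34) for DDX21, and that of DDX21 was above 0 with upper-quartile scaling. NPM1 has many near-identical pseudogenes, so its count is uncertain.

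Genes of the RNA polymerase I machinery showed the same order as the processing factors. POLR1A, the largest subunit of the polymerase, was at 121 and 122 CPM in the KO libraries, against 37.6 and 135 CPM in WT replicates 1 and 2. POLR1B, the subunit that completes the catalytic centre, was at 101 and 102 CPM in the KO libraries, against 53.4 and 105 CPM in WT replicates 1 and 2. UBTF, which binds and opens ribosomal DNA, was at 112 and 121 CPM in the KO libraries, against 62.5 and 113 CPM in WT replicates 1 and 2. The gap between the WT libraries was 3.58-fold for POLR1A, against 1.97-fold and 1.81-fold for POLR1B and UBTF. In CPM, KO values were below WT replicate 2 for POLR1A and POLR1B and on either side of it for UBTF. On FPKM values those of POLR1A stayed below it. Those of POLR1B, 16.4 and 16.6 FPKM, were above its 15.8 FPKM in WT replicate 2. Those of UBTF, 28.1 and 31.0 FPKM, were above its 27.2 FPKM there.

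Per length, the members spanned 1302 FPKM for NPM1 to 2.995 FPKM for UTP14A as means over the 4 libraries. After NPM1 came NCL (236 FPKM), NOP10 (215.6 FPKM), NHP2 (163 FPKM) and FBL (118 FPKM). The lowest were WDR36 (9.44 FPKM), UTP15 (5.35 FPKM), PPAN (3.04 FPKM) and UTP14A. The members that departed most from the common order, PPAN and UTP14A, were thus the lowest in level.

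The other genes of the pathway, 109 from lists of further processome, snoRNP, 60S, RNA polymerase I and exosome genes, mostly had the same order of libraries. All 109 were tested, and edgeR and DESeq2 called 0 of them with all 4 libraries, against 0.0% and 0.25% of all genes. WT replicate 1 was the lowest library for 91 (83.5%), against 39.8% of all genes tested. It was more than 2-fold below WT replicate 2 for 33 (30.3%), against 9.83% of all genes tested. By list, it was lowest for 30 of 33 further processome and 40S genes, 39 of 43 further 60S genes, 9 of 12 RNA polymerase I genes, 6 of 10 snoRNP assembly genes and 7 of 11 exosome genes. The snoRNP assembly and exosome lists had 0 genes with a gap over 2-fold. The median log2 fold change over the 109 genes was 0.29 with all 4 libraries and -0.02 without WT replicate 1.

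Without WT replicate 1, edgeR called 3 of these genes higher and 3 lower in KO, or 2.75% each way. That is near the 2.54% of all genes called higher and below the 3.93% called lower in that fit, so the counts are no result about the list. TSR2, a chaperone of a 40S ribosomal protein, was at 21.6 and 19.1 CPM in the KO libraries, against 14.8 and 10.7 CPM in WT replicates 1 and 2, and rose by 0.93 (SE 0.20, edgeR adjusted p = 0.000235). NOLC1, which carries snoRNPs in the nucleolus, was at 320.3 and 303 CPM in the KO libraries, against 224 and 215 CPM in WT replicates 1 and 2, and rose by 0.54 (SE 0.14, edgeR adjusted p = 0.00542). For both, the 2 KO values exceeded the 2 WT values, with WT replicate 1 on the side of WT replicate 2. EXOSC1, a cap subunit of the RNA exosome, was at 22.7 and 22.9 CPM in the KO libraries, against 40.4 and 41.5 CPM in WT replicates 1 and 2, and fell by 0.86 on the log2 scale (SE 0.17, edgeR adjusted p = 3.89e-05). With all 4 libraries its log2 fold change was -0.84 (SE 0.22, edgeR adjusted p = 0.834, DESeq2 adjusted p = 0.42).

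The other calls of that fit did not keep the same order once WT replicate 1 was set beside them. UTP11 was at 35.5 and 34.4 CPM in the KO libraries, against 21.3 and 52.9 CPM in WT replicates 1 and 2, and NOL9, a kinase of the large-subunit precursor, at 30.1 and 28.4 CPM in the KO libraries, against 10.6 and 44.0 CPM in WT replicates 1 and 2, both with KO values between the WT values. SENP3, a SUMO protease, was at 7.18 and 8.77 CPM in the KO libraries, against 10.9 and 3.30 CPM in WT replicates 1 and 2, and its reads may be shared with the readthrough row SENP3-EIF4A1. UTP11, NOL9 and SENP3 were called against WT replicate 2 alone, and so were TSR2, NOLC1 and EXOSC1.

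MYC, which drives many of these genes in growing cells, did not follow their order. It was at 166 and 178 CPM in the KO libraries, against 250.0 and 125 CPM in WT replicates 1 and 2, highest in WT replicate 1 and lowest in WT replicate 2. Its log2 fold change was -0.13 (SE 0.38) with all 4 libraries (edgeR adjusted p = 0.934) and 0.46 (SE 0.15) without WT replicate 1 (edgeR adjusted p = 0.0351). All 6 tested genes of MYC, its relatives and its partners were highest in WT replicate 1, as were 40.7% of all genes tested.

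Genes induced by low oxygen and several stromal markers were mostly highest in WT replicate 1, the library in which the biogenesis factors were low. The summed level of 12 low-oxygen genes was 3837 and 3674 CPM in the KO libraries, against 12121 and 4312 CPM in WT replicates 1 and 2. Of the 12, 11 were highest in WT replicate 1, as were 40.7% of all genes tested. Summed fibroblast and muscle markers were at 126 and 145 CPM in KO, against 214 and 152 CPM in WT. COL1A1 alone held 83.2 and 104.6 CPM of these in KO, against 143.7 and 106.7 CPM in WT. Of 6 tested markers 5 were highest in WT replicate 1. PDGFRB was lowest there, at 21.4 CPM, and COL1A2 did not exceed 0.102 CPM. Endothelial markers summed to 2.88 and 4.81 CPM in KO, against 8.09 and 6.27 CPM in WT. Of 3 tested, 2 were highest in WT replicate 1, but CDH5 was at 2.38 CPM there and 2.97 CPM in WT replicate 2. Gastric gland markers, 10 in the table and 2 tested, summed to 16.3 and 12.1 CPM in KO, against 9.65 and 14.5 CPM in WT. Leukocyte markers summed to 104 and 20.2 CPM in KO, against 52.4 and 87.5 CPM in WT, of which CD8A was 87.9 and 0 CPM in KO, against 11.5 and 64.6 CPM in WT, while CD3D did not exceed 0.068 CPM. The markers were read as human genes, so what they say of mouse tissue is not known. The part of these in the levels of the biogenesis factors was not tested.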

How the data were processed

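RNA was measured in 2 Mst4 KO and 2 WT libraries. The deposited table gives, per the file headers, an estimated count and an expression value per gene and library. The authors scaled the expression value by gene length and library, and it is read as FPKM from its values because the header names no unit. HISAT2, Cufflinks and RSEM are named without roles or versions, with build GRCm38.p5, per the submitters' processing notes, while every row identifier is that of a human gene. For the annotation, the strandedness and the assignment of reads to human genes, nothing is given in the sources used here. No sequence or coordinate is printed. The driver of the Cre transgene is not reported here.

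Expected counts were rounded and tested with edgeR 4.0.16 (R 4.3.3, limma 3.58.1): filterByExpr, TMM, robust quasi-likelihood fit on genotype, Benjamini-Hochberg adjustment over all 16030 genes, threshold 0.05. TMM factors were 1.026 and 1.025 in KO and 0.966 and 0.984 in WT. SE is the log2 fold change divided by the root of the F statistic. Alternatives tried were scaling by RLE or by upper quartile, no count filter, at least 5 CPM in 2 libraries, DESeq2 1.42.0, limma-voom, limma-trend on log2(FPKM + 1) and log2(FPKM + 0.1) for genes with a mean of at least 1 FPKM, each library left out, and the replicate number as a block. A crossed block, DESeq2 without WT replicate 1 and merged rows for the pairs with shared reads were added after the data had been seen. The steps were tested on simulated data. That simulation held no library set apart as WT replicate 1 was, so it cannot show how the steps perform on such data. Differences between the WT libraries are a description with no test.

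The members and lists were chosen with earlier results of these data known. By rule, values in every library are given for the 2 members with the smallest p in each role group and the 5 highest and 5 lowest log2 fold changes. The rule also takes the members called in any alternative with the largest sizes in each direction, and the most abundant member per length of each role group. Up to 2 genes with the smallest p per pathway list may be named. STK26, MYC and genes that may share reads with a member are always named. Other members with values, and UTP11, NOL9 and SENP3, were added after their values were seen. Depth limits the precision of low members most, and 2 libraries a group limit every test.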

Additional observations from a re-analysis of the deposited data

How the results depend on the processing

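The count of members called in KO against WT, 0, was the same under RLE and upper-quartile scaling, both count filters, DESeq2, limma-voom, both FPKM fits and without either KO library. Leaving out 1 library in turn gave between 0 and 41 members called, 2 without WT replicate 1 and 41 without WT replicate 2, and their median log2 fold change ran between -0.017 and 0.993. DESeq2 without WT replicate 1 gave a median member log2 fold change of -0.020, against 0.008 over all genes tested. With the merged rows and no WT replicate 1 the median was -0.024, against 0.011 over all genes tested. Without WT replicate 1, 20 of the 44 members turned from above to below 0 and 1, FBL, the other way. How often all genes tested turned was not counted. Among the 22 members singled out by the rule for named genes, log2 fold changes turned with single libraries left out for POLR1B (-0.052 to 0.948), NPM1 (-0.15 to 0.95), UTP18 (-0.18 to 0.73), FBL (-0.629 to 0.094), TSR1 (-0.20 to 0.21), DDX21 (-0.37 to 0.52), UTP20 (-0.073 to 2.25), UTP15 (-0.16 to 1.74) and POLR1A (-0.15 to 1.71). That of TSR1 was 0.013 with upper-quartile scaling, 0.026 on log2(FPKM + 1) and 0.0285 on log2(FPKM + 0.1), and that of DDX21 was 0.026 with upper-quartile scaling, 0.059 in limma-voom and 0.10 in both FPKM fits. PPAN merged with its readthrough row gave -0.39 in edgeR, -0.39 in DESeq2 and -0.17 without WT replicate 1. The cause of these turns was not tested. Over all genes DESeq2 called 6 higher and 34 lower where edgeR called 0. The deviations of same-numbered libraries from their group means had a correlation of -0.126 over 16030 genes. With 2 libraries per genotype this is a single pair of contrasts, so it cannot decide whether the numbers pair the libraries. With the number as a replicate block, 0 members were called, the median member was at 0.50, DDX21 was at 0.056, and 5 genes of the table were called higher and 5 lower. The crossed pairing, added after the data had been seen, called 0 members and 1 higher and 3 lower over all genes. Counts were lowest for PPAN and UTP14A, down to 30.3 and 51.7 in a library, so counting error weighs most on these members.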

Other observations

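The gene length implied by a library's count, total and FPKM value should be the same in every library for a gene with a fixed set of transcripts, and it varied over 1.2-fold between libraries for 2 of the 44 members. For UTP14A it was 2246 and 3004 bases in the KO libraries, against 2547 and 2688 bases in WT. For RRP1 it was 1883 and 1964 bases in the KO libraries, against 2197 and 1790 bases in WT.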
